A study of Mus musculus with 8 samples.

Results

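Chondroitin sulfate is a long sugar chain that cells attach to core proteins of the cell surface, of secretory granules and of the matrix around them. The chain is built in the Golgi on a short linker that it shares with heparan sulfate, and the first N-acetylgalactosamine added to that linker commits it to chondroitin sulfate. The chain is then lengthened and sulfated, and the sulfate groups set which proteins it can bind. In lymphocytes these chains are carried by serglycin of the cytotoxic granules and by surface proteins such as CD44.

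The 10 genes described here are Xylt1 and Fam20b of the linker, Csgalnact1 and Csgalnact2 of chain initiation, Chsy1 and Chpf of elongation, Chst11 and Chst12 of sulfation, Fam20a and Esm1. They are 10 of the 25078 genes in the deposited tables, were found there by their symbols, and were chosen by their measured counts, because Csgalnact1, Chst11, Fam20a and Esm1 were lower in STAT3KO than in WT T cells. The values of all 10 in that comparison are therefore a description without a test. Of the 10, 8 encode parts of the chondroitin sulfate machinery. The other pair does not: Fam20a encodes a pseudokinase that activates the secretory kinase Fam20c, and Esm1 encodes endocan, a secreted core protein that carries a single dermatan sulfate chain. All 10 passed the filter on low counts and entered every fit.

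Messenger RNA was measured in donor T cells from the spleen of mice on day 6 after hematopoietic cell transplantation (HCT). Per the study's methods, lethally irradiated BALB/c recipients, themselves WT, received T cell-depleted bone marrow from WT C57BL/6 donors together with T cells from C57BL/6 donors that were either WT or STAT3KO. In STAT3KO donors (Stat3 fl/fl CD4-Cre) a Cre recombinase under Cd4 regulatory sequences deletes a floxed part of Stat3, so the deletion starts during T cell development and takes in CD4 as well as CD8 T cells. Cells positive for H-2Kb, TCRβ and either CD4 or CD8 were sorted. H-2Kb marks the donor strain, so the gate keeps out recipient T cells but does not separate T cells of the T cell inoculum from any of the marrow graft. The 8 libraries form 4 groups of 2 replicates, WT CD4, WT CD8, STAT3KO CD4 and STAT3KO CD8, and each library pools cells of 3 recipients. The age of the mice is not given in the sources used here.

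The libraries held between 20171396 and 23282757 counts, and a count of 0 still allows up to 3 counts, or at most 0.149 CPM (counts on a common library size, here by the TMM method), for counting error only. The targeted gene was checked first. Stat3 was at 436 and 428 CPM in WT CD4, 138 and 141 CPM in STAT3KO CD4, 431 and 436 CPM in WT CD8, and 119.7 and 143 CPM in STAT3KO CD8 T cells. It was thus at 32.4% of the WT level for CD4 and 30.3% for CD8 T cells, and the counts per gene do not separate deleted from remaining exons. Cd4 was at 8.16 CPM or less in the CD8 libraries and at 1361 CPM or more in the CD4 libraries. Transcripts of macrophage genes were higher in replicate 2 of every group (72.8 to 141 CPM summed over 10 genes, against 22.5 to 57.5 CPM in replicate 1).

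The genes lie on 8 chromosomes of the mm10 build and all are protein coding. Csgalnact1 spans chr8:68356781-68735146 on the minus strand, Chst11 spans chr10:82985497-83195891 on the plus strand, Fam20a spans chr11:109672926-109722238 on the minus strand and Esm1 spans chr13:113209659-113218104 on the plus strand. Only Chsy1 and Fam20b share exon bases with another annotated gene, 148 bases with the antisense gene Gm26827 and 400 bases with Gm19918 on the other strand, and whether the counting used the strand is not given in the sources used here. RefSeq promoter sequences (GRCm38.p6) were matched for 8 of the 10 genes, and Csgalnact1 and Xylt1 were not among them. The 250 bases before the start of Chst11, Fam20a and Esm1, which were lower in STAT3KO cells, and of Chst12, the close relative of Chst11 that was not, are shown so that their base composition can be compared. Each is written 5′ to 3′ on the strand of its gene, with every CG dinucleotide in capitals, at chr10:82985247-82985496 (plus strand, Chst11), chr5:140505359-140505608 (plus strand, Chst12), chr11:109722239-109722488 (minus strand, Fam20a) and chr13:113209409-113209658 (plus strand, Esm1).
Chst11: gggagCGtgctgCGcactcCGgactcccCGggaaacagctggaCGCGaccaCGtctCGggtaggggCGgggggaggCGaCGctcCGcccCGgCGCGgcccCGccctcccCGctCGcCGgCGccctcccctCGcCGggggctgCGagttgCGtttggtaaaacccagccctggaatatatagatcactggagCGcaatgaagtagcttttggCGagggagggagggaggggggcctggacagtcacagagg
Chst12: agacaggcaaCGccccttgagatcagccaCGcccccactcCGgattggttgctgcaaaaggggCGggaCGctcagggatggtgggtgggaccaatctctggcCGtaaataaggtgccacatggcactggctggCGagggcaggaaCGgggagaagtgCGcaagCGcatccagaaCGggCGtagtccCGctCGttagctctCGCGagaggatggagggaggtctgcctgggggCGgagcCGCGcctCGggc
Fam20a: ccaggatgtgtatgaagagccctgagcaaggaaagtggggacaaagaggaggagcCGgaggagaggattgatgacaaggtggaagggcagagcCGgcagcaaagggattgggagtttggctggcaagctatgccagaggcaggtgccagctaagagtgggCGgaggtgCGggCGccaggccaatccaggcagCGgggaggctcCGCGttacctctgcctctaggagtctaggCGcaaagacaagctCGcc
Esm1: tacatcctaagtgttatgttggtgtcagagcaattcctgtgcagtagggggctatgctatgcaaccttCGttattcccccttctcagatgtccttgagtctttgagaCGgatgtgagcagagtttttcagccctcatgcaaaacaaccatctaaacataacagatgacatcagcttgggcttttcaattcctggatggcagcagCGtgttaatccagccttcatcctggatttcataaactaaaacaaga
The sequence before Chst11 held 26 CG dinucleotides at 70.0% G and C, that before Fam20a held 10 at 61.2%, and that before Chst12, which was not lower, held 20 at 65.6%. The sequence before Esm1 held 3 at 44.0%, below the medians of 6 and 52.4% over all mouse promoters in the RefSeq table. Chst11, Fam20a and Esm1 thus did not share one promoter composition. The palindromic letters TTCNNNGAA and TTCNNNNGAA, known as STAT binding motifs and the same on both strands, were searched from 250 bases before to 50 bases after the start; matches to the 2 may overlap. Neither was found in the 9 windows of the 8 genes, whereas 8.3% and 6.95% of 32851 promoter windows held them. No match says only that these letters are not in these windows.

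**Figure D1:**
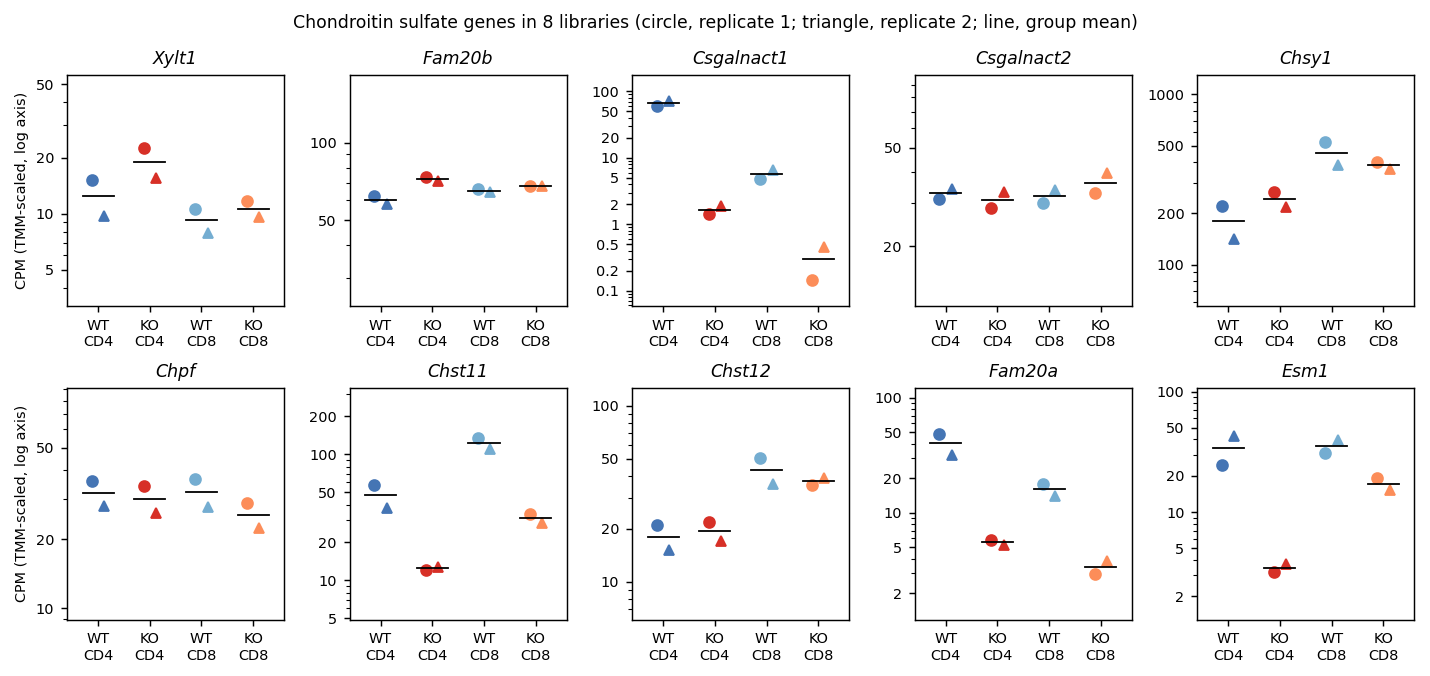
TMM-scaled CPM of each of the 10 genes in the 8 libraries (log axis; circles, replicate 1; triangles, replicate 2; lines, group means; KO, STAT3KO). Csgalnact1, Chst11, Fam20a and Esm1 stand lower in both STAT3KO libraries than in both WT libraries of each T cell type, and Csgalnact1 reaches from 0.14 to 71.7 CPM.

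The linker begins with xylose. Xylt1, the xylosyltransferase that attaches it to a serine of the core protein, was at 15.2 and 9.69 CPM in WT CD4, 22.6 and 15.6 CPM in STAT3KO CD4, 10.7 and 7.92 CPM in WT CD8, and 11.7 and 9.65 CPM in STAT3KO CD8 T cells. The STAT3KO CD4 libraries were the highest for Xylt1, and the other groups overlapped with their neighbours. Its log2 fold change (STAT3KO over WT) was 0.61 (SE 0.28) in CD4 and 0.20 (SE 0.28) in CD8 T cells. Fam20b phosphorylates that xylose and so favours completion of the linker. It lay between 58.0 and 73.4 CPM in the 8 libraries, a narrow range in which no 2 groups overlapped, and its log2 fold change was 0.27 (SE 0.09) in CD4 and 0.06 (SE 0.09) in CD8 T cells.

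In chain initiation, Csgalnact1 had the lowest log2 fold change (STAT3KO over WT) of the 10 genes in both T cell types. Csgalnact1 and Csgalnact2 encode N-acetylgalactosaminyltransferases that add the sugar committing the linker to chondroitin sulfate. Csgalnact1 was at 60.5 and 71.7 CPM in WT CD4 T cells and at 1.40 and 1.87 CPM in STAT3KO CD4 T cells. It was at 4.75 and 6.57 CPM in WT CD8 T cells and at 0.14 and 0.45 CPM in STAT3KO CD8 T cells. No neighbours in the order WT CD4, WT CD8, STAT3KO CD4, STAT3KO CD8 overlapped. The counts behind these values were 1212 and 1517, 110 and 156, 28 and 41, and 3 and 10, in that order. The STAT3KO CD8 libraries were thus at or just above the limit of 3 counts.

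As compared with WT, the log2 fold change of Csgalnact1 was -5.32 (SE 0.29) in CD4 and -4.20 (SE 0.38) in CD8 T cells, or 2.48% and 5.26% of the WT level. The gene ranked 8 from the lowest log2 fold change among 12428 genes in each comparison. On library totals the STAT3KO level in CD8 T cells was 5.19% of WT (exact 95% interval 2.73% to 9.03%, for counting error only). In CD8 T cells the log2 fold change was -5.25 without STAT3KO CD8 replicate 2 and -3.63 without STAT3KO CD8 replicate 1. On the log2(RPKM + 1) scale it was -3.51 for CD4 and -1.06 for CD8 T cells, where the added 1 exceeds every STAT3KO value. In bulk libraries, fewer cells that express a gene cannot be told apart from less RNA per cell. Markers of follicular helper T cells, 10 genes that include Cxcr5, Bcl6 and Il21, had a lower sum in STAT3KO than in WT libraries of each T cell type. The sum was 4004 and 4704 CPM in WT CD4, 2091 and 2236 CPM in STAT3KO CD4, 1478 and 1484 CPM in WT CD8, and 1084 and 1175 CPM in STAT3KO CD8 T cells. Of the 10 markers, 7 were lower with STAT3 deficiency in CD4 T cells and 3 in CD8 T cells by edgeR's test (adjusted p under 0.05). Of all tested genes, 5.08% were called lower in CD4 and 0.732% in CD8 T cells. Icos alone gave 2326 and 3162 CPM of the sum in WT CD4 libraries. In WT CD8 libraries Icos gave 646 and 797 CPM and Pdcd1 gave 592 and 418 CPM. Pdcd1, Sh2d1a and Cd200 did not pass in either T cell type. The part of these markers in the Csgalnact1 values was not tested.

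Csgalnact2 differed from its relative. It was at 31.2 and 34.2 CPM in WT CD4, 28.6 and 33.2 CPM in STAT3KO CD4, 30.0 and 33.8 CPM in WT CD8, and 32.7 and 39.6 CPM in STAT3KO CD8 T cells. All 4 groups overlapped with their neighbours, with log2 fold changes of -0.08 (SE 0.14) in CD4 and 0.18 (SE 0.14) in CD8 T cells. On the RPKM scale, which accounts for transcript length, Csgalnact1 made up 62.1% and 63.9% of the sum of the pair in WT CD4 and 3.97% and 4.54% in STAT3KO CD4 T cells. In CD8 T cells it made up 11.8% and 14.1% in WT and 0.372% and 0.952% in STAT3KO libraries. The mean summed RPKM of the pair was 22.9 for WT and 8.19 for STAT3KO CD4 T cells, and 9.41 for WT and 9.26 for STAT3KO CD8 T cells. WT CD4 T cells were thus the group with the highest summed level, and the other 3 lay close to the level of Csgalnact2 alone.

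Elongation genes showed no common direction. Chsy1, a chondroitin synthase that polymerizes the chain, was at 221 and 142 CPM in WT CD4, 266 and 218 CPM in STAT3KO CD4, 523 and 387 CPM in WT CD8, and 403 and 365 CPM in STAT3KO CD8 T cells. WT and STAT3KO libraries overlapped in CD4 as in CD8 T cells, with log2 fold changes of 0.42 (SE 0.23) and -0.25 (SE 0.23). In RPKM, Chsy1 had the highest mean of the 10 genes in each group, from 43.2 in WT CD4 to 108 in WT CD8 T cells. Chpf, its partner in polymerization, was between 22.3 and 36.4 CPM in the 8 libraries, and its log2 fold change was -0.09 (SE 0.21) in CD4 and -0.33 (SE 0.22) in CD8 T cells.

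Of the sulfotransferases, Chst11 was lower in STAT3KO cells and Chst12 was not. Both enzymes put sulfate on carbon 4 of N-acetylgalactosamine. Chst11 was at 57.6 and 37.6 CPM in WT CD4, 12.2 and 12.8 CPM in STAT3KO CD4, 135 and 111 CPM in WT CD8, and 33.5 and 28.7 CPM in STAT3KO CD8 T cells. None of the 4 groups overlapped for Chst11, and the order from the highest was WT CD8, WT CD4, STAT3KO CD8, STAT3KO CD4. The log2 fold change of Chst11 was -1.93 (SE 0.22) in CD4 and -1.98 (SE 0.21) in CD8 T cells, or 26.2% and 25.3% of the WT level. Chst12 was at 20.9 and 15.3 CPM in WT CD4, 22.0 and 17.1 CPM in STAT3KO CD4, 50.4 and 35.7 CPM in WT CD8, and 35.4 and 39.0 CPM in STAT3KO CD8 T cells. Its WT and STAT3KO libraries overlapped in CD4 and in CD8 T cells, with log2 fold changes of 0.11 (SE 0.22) and -0.21 (SE 0.22). The share of Chst11 in the summed RPKM of the pair was 45.8% ± 1.97 (SD, n = 2) in WT CD4 libraries, 17.3% ± 2.94 in STAT3KO CD4 libraries, 48.3% ± 2.64 in WT CD8 libraries and 21.3% ± 2.98 in STAT3KO CD8 libraries. The STAT3KO libraries therefore held less of the pair's summed RPKM as Chst11, with a similar share of Chst11 in CD4 and CD8 T cells of each genotype.

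**Figure D2:**
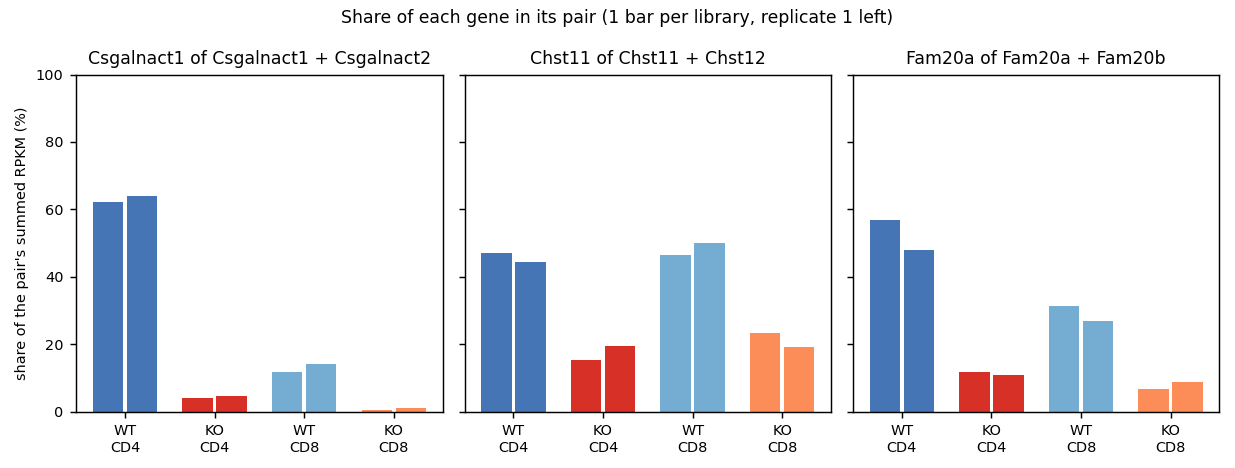
Share of the first gene in the summed RPKM of its pair (y axis, percent), with 1 bar for each of the 8 libraries (replicate 1 left) and no error bars (KO, STAT3KO). Csgalnact1 makes up 62.1% and 63.9% of its pair in WT CD4 libraries and at most 14.1% in each of the others, whereas the share of Chst11 is 44.4% or more in WT and 23.5% or less in STAT3KO libraries of both T cell types.

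Fam20a followed the same order of groups as Csgalnact1. It was at 48.9 and 32.0 CPM in WT CD4, 5.85 and 5.21 CPM in STAT3KO CD4, 18.0 and 14.1 CPM in WT CD8, and 2.94 and 3.83 CPM in STAT3KO CD8 T cells. No neighbours in the order WT CD4, WT CD8, STAT3KO CD4, STAT3KO CD8 overlapped. Its log2 fold change was -2.87 (SE 0.25) in CD4 and -2.24 (SE 0.26) in CD8 T cells, or 13.7% and 21.1% of the WT level. In the summed RPKM of Fam20a and Fam20b, the kinase of the linker, Fam20a made up 52.5% ± 6.26 (SD, n = 2) in WT CD4 libraries, 11.4% ± 0.592 in STAT3KO CD4 libraries, 29.2% ± 3.04 in WT CD8 libraries and 7.71% ± 1.35 in STAT3KO CD8 libraries.

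Esm1 was the gene with the widest gap between its log2 fold changes in CD4 and in CD8 T cells. It was at 24.5 and 42.9 CPM in WT CD4 and 3.20 and 3.70 CPM in STAT3KO CD4 T cells. It was at 30.9 and 39.2 CPM in WT CD8 and 19.0 and 15.3 CPM in STAT3KO CD8 T cells. The WT groups overlapped, and both STAT3KO groups lay below them without overlap. The log2 fold change was -3.28 (SE 0.30) in CD4 and -1.03 (SE 0.26) in CD8 T cells, or 10.2% and 48.9% of the WT level. Endocan is best known as a product of endothelial cells, whose markers were therefore measured. Their sum over 14 genes was 3.79 and 4.68 CPM in WT CD4, 2.10 and 4.89 CPM in STAT3KO CD4, 8.43 and 13.1 CPM in WT CD8, and 5.26 and 13.3 CPM in STAT3KO CD8 T cells. WT and STAT3KO sums overlapped in both T cell types. Of the 14 genes, 8 stayed under 1 CPM in every library, Emcn, Sox17 and Tek among the lowest at 0.168 CPM or less. Flt1 (up to 5.01 CPM) and Vwf (up to 3.07 CPM) were the highest. None of the 5 that were tested passed in either comparison. Among these, the log2 fold change was below 0 for Flt1, Egfl7 and Plvap and above 0 for Cdh5 in both T cell types. For Kdr it was above 0 in CD4 and below 0 in CD8 T cells. The part of endothelial cells in the Esm1 values was not tested.

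Across the 10 genes, the 4 named in the choice were called lower in STAT3KO CD4 T cells by edgeR's quasi-likelihood test (Benjamini-Hochberg adjusted p under 0.05 over 12428 genes), and 5.08% of all tested genes were called lower there. In CD8 T cells 3 were called lower (Csgalnact1, Chst11 and Fam20a), against 0.732% of all tested genes. Each of these 3 calls was lost in some fits with fewer libraries, which have fewer residual degrees of freedom. With any 1 of the 8 libraries left out, the log2 fold change lay between -5.25 and -3.63 for Csgalnact1. It lay between -2.12 and -1.84 for Chst11 and between -2.46 and -2.06 for Fam20a. Fam20a was not called when any 1 of the 4 CD8 libraries was left out, Chst11 without either STAT3KO CD8 library, and Csgalnact1 without STAT3KO CD8 replicate 1 or with only the libraries compared in the fit. WT and STAT3KO libraries did not overlap for 6 of the 10 genes in CD4 T cells, against 53.5% of all tested genes, and for 5 in CD8 T cells, against 49.7%. As the choice of genes used these comparisons, nothing is read from the counts. The median log2 fold change of the 10 genes was -0.08 for CD4 T cells, where that of all tested genes was 0.02, and -0.29 for CD8 T cells, where that of all tested genes was -0.01.

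**Figure D3:**
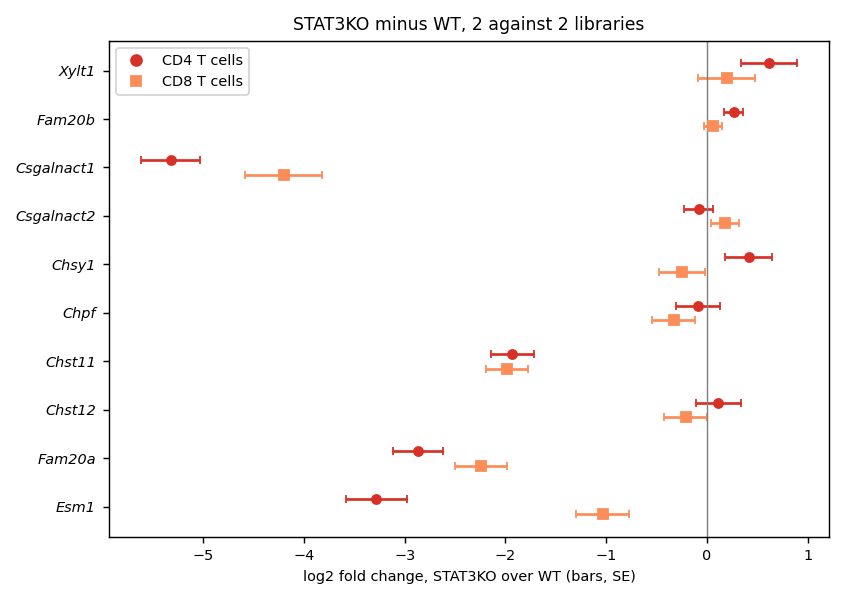
Log2 fold change (STAT3KO over WT, x axis) of the 10 genes in CD4 (circles) and CD8 T cells (squares), with SE as bars, from the fit over 8 libraries. Csgalnact1 (-5.32 and -4.20), Fam20a (-2.87 and -2.24) and Chst11 (-1.93 and -1.98) lie left of 0 in both, Esm1 lies at -3.28 (CD4) and -1.03 (CD8), and the other 6 lie between -0.33 and 0.61.

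The question whether the effect of STAT3 deficiency differed between CD8 and CD4 T cells was tested as an interaction. The choice of genes used the STAT3KO and WT values that enter it. For the genes named in the choice, these tests are therefore not independent of it, and their p-values serve as a description. None of the 10 genes passed, and neither did any of the 12428 genes (edgeR). However, the unadjusted p was under 0.05 for 982 genes, and the DESeq2 Wald test called 188. With the replicate number as a block, edgeR called 403 genes, Esm1 and Chsy1 among them, but no label says that this number marks a shared batch. Esm1 had the largest difference among the 10 genes, 2.25 on the log2 scale (CD8 minus CD4, SE 0.40, edgeR adjusted p = 0.130). It was called in 3 of 14 alternatives, with adjusted p between 3.3e-05 and 0.559 over all of them. For Csgalnact1 the difference was 1.12 (SE 0.58, adjusted p = 0.736), and it was called in 1 of 14 alternatives, the fit on log2(RPKM + 1), with adjusted p between 0.0248 and 1.00. Its size moved from 0.10 to 1.70 with 1 library left out. For Fam20a the difference was 0.63 (SE 0.35, adjusted p = 0.780). For Chst11 it was -0.05 (SE 0.29, adjusted p = 0.999), with a 95% interval from -0.63 to 0.53.

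CD8 and CD4 T cells were then compared within each genotype. The choice of genes did not use this contrast, but it used the STAT3KO and WT values that enter it. For the 4 genes named in the choice, these tests are therefore not independent of it. In WT T cells 5 of the 10 genes passed the edgeR test, against 23.8% of all tested genes. In CD8 T cells 3 of the 5 were higher (12.2% of all tested genes were called higher) and 2 were lower (11.6%). These 5 passed in each of 15 alternatives. Chst11, Chst12 and Chsy1 were higher in WT CD8 than in WT CD4 T cells, with log2 fold changes of 1.37 (SE 0.20, adjusted p = 0.00268), 1.25 (SE 0.22, adjusted p = 0.00574) and 1.33 (SE 0.23, adjusted p = 0.00574). An elongation gene and both sulfation genes were thus at 2.38 to 2.58 times the CD4 level. Csgalnact1 was lower in CD8 T cells, with a log2 fold change of -3.54 (SE 0.25, adjusted p = 0.00016) and 8.57% of the CD4 level. Fam20a was also lower, with a log2 fold change of -1.33 (SE 0.23, adjusted p = 0.00528). For the other genes the test did not pass and the 95% intervals of the log2 fold change ran from -0.31 to 0.24 for Csgalnact2, from -0.41 to 0.43 for Chpf, from -0.97 to 0.13 for Xylt1, from -0.06 to 0.30 for Fam20b and from -0.45 to 0.56 for Esm1.

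In STAT3KO T cells 4 of the 10 genes passed, against 12.5% of all tested genes, 3 of them higher in CD8 T cells (5.84% of all tested genes) and 1 lower (6.67%). Esm1 was higher in STAT3KO CD8 than in STAT3KO CD4 T cells, with a log2 fold change of 2.31 (SE 0.30, adjusted p = 0.00354), and it passed in each of 15 alternatives. The mean WT levels of Esm1 were 33.7 CPM in CD4 and 35.1 CPM in CD8 T cells. Its difference between the STAT3KO groups therefore restates the levels that entered the choice, 10.2% (CD4) and 48.9% (CD8) of WT. Chst11 (1.32, SE 0.22, adjusted p = 0.00864) and Chst12 (0.93, SE 0.22, adjusted p = 0.0334) were higher as well, and Csgalnact1 was lower (-2.42, SE 0.44, adjusted p = 0.0132). These 3 did not pass in some fits that left out 1 library, which have fewer residual degrees of freedom. Their log2 fold changes kept their direction in each such fit. Csgalnact1 did not pass without STAT3KO CD4 replicate 2 (-2.21) or STAT3KO CD8 replicate 1 (-1.86), nor on the log2(RPKM + 1) scale (-0.34). Chst11 did not pass without STAT3KO CD4 replicate 1 (1.29) or replicate 2 (1.33) or without STAT3KO CD8 replicate 1 (1.19). Chst12 did not pass when any 1 of the 4 STAT3KO libraries was left out, at log2 fold changes of 0.74 to 1.12. The log2 fold change of Chsy1 was 0.66 (SE 0.23, adjusted p = 0.109) and that of Fam20a -0.70 (SE 0.27, adjusted p = 0.133), and neither passed. That a gene passed in one genotype and not in the other does not show that the genotypes differ, which is the interaction given above.

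**Figure D4:**
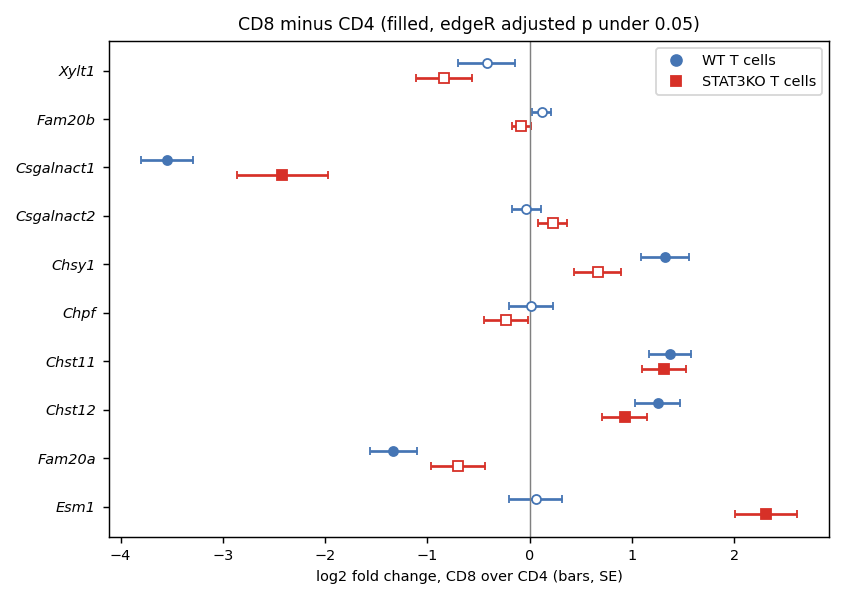
Log2 fold change (CD8 over CD4, x axis) of the 10 genes in WT (circles) and STAT3KO T cells (squares), with SE as bars and filled symbols where the edgeR adjusted p was under 0.05. Csgalnact1 lies left of 0 (-3.54 and -2.42), Chst11 and Chst12 lie right of 0 in both genotypes, and Esm1 lies at 0.06 in WT and 2.31 in STAT3KO T cells.

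The rest of the pathway was followed through 9 lists of 104 further gene symbols, some of them alternative names of the same gene. Of these symbols, 98 were in the deposited tables and 70 were tested. The lists were chosen with earlier results of these data known, so their p-values do not come from an independent choice. In CD4 T cells 10 of the 70 passed, 5 higher and 5 lower in STAT3KO, or 14.3% against 11.6% of all tested genes (6.54% higher and 5.08% lower). With any 1 of the 8 libraries left out, between 3 and 6 of the 70 passed. In CD8 T cells 0 of the 70 passed with edgeR, against 2.07% of all tested genes, where 16 had an unadjusted p under 0.05 and DESeq2 called 3.

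Of the 5 tested linkage genes 1 passed in CD4 T cells: B3gat3, whose product adds the glucuronic acid that completes the linker, rose (log2 fold change 0.69, SE 0.18, adjusted p = 0.0477). It passed in 1 of 8 fits that left out a library. Of the 2 listed elongation genes only Chpf2, a paralog of Chpf, was tested, and its log2 fold change of -0.11 (SE 0.11) did not pass. None of 6 sulfation and epimerase genes and none of 13 sulfate and sugar donor genes passed. The examples with the highest RPKM in the first list were Dse, an epimerase that turns chondroitin into dermatan sulfate (log2 fold change 0.26, SE 0.14), and Ust, a uronyl sulfotransferase (0.89, SE 0.30). Those in the second were the sulfate donor transporter Slc35b3 (-0.18, SE 0.15) and Ugdh, which makes UDP-glucuronic acid (0.18, SE 0.09).

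Of 13 tested core protein genes 1 passed, Aplp2, which encodes an amyloid precursor-like protein. It was at 83.1 ± 6.52 CPM in WT CD4 and 113 ± 0.584 CPM in STAT3KO CD4 T cells (SD, n = 2), a rise of 0.44 on the log2 scale (adjusted p = 0.0336), and it passed in 0 of 8 fits that left out a library. In the degradation list 4 of 11 passed, in both directions. Arsb, the lysosomal sulfatase that removes the 4-sulfate, was at 179 and 123 CPM in WT CD4 and at 370.1 and 352 CPM in STAT3KO CD4 T cells. Its log2 fold change was 1.26 (SE 0.18, adjusted p = 0.00508), and it passed in each of 15 alternatives. Hexa, a lysosomal enzyme gene, fell (-0.64, SE 0.16, adjusted p = 0.0413), and so did the iduronidase gene Idua (-0.52, SE 0.14, adjusted p = 0.0494). Hexa passed in 2 of 8 fits that left out a library and Idua in 0.

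The heparan sulfate list, which covers the chain that competes for the same linker, had 2 of 11 tested genes called, and both fell. Ext1, a subunit of the heparan sulfate polymerase, was at 103.9 and 106 CPM in WT CD4 and at 33.6 and 43.5 CPM in STAT3KO CD4 T cells. Its log2 fold change was -1.45 (SE 0.18, adjusted p = 0.00361), and it passed in each of 15 alternatives. Hs6st1, a heparan 6-O-sulfotransferase, fell by 0.76 on the log2 scale (SE 0.14, adjusted p = 0.0157) and passed in 5 of 8 fits that left out a library. Dipk1a, 1 of 4 tested genes of the secretory kinase family, rose by 0.87 (SE 0.10, adjusted p = 0.00247) and passed in each of 15 alternatives. The endocan list holds binding partners of endocan together with receptors or ligands of such partners. Of its 6 tested genes 1 passed, Met, the receptor of hepatocyte growth factor (-2.73, SE 0.62, adjusted p = 0.0300), which stayed under 1 CPM in all libraries. Met passed in 1 of 8 fits that left out a library, and its log2 fold change lay between -3.35 and -0.09 over 15 alternatives.

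**Figure D5:**
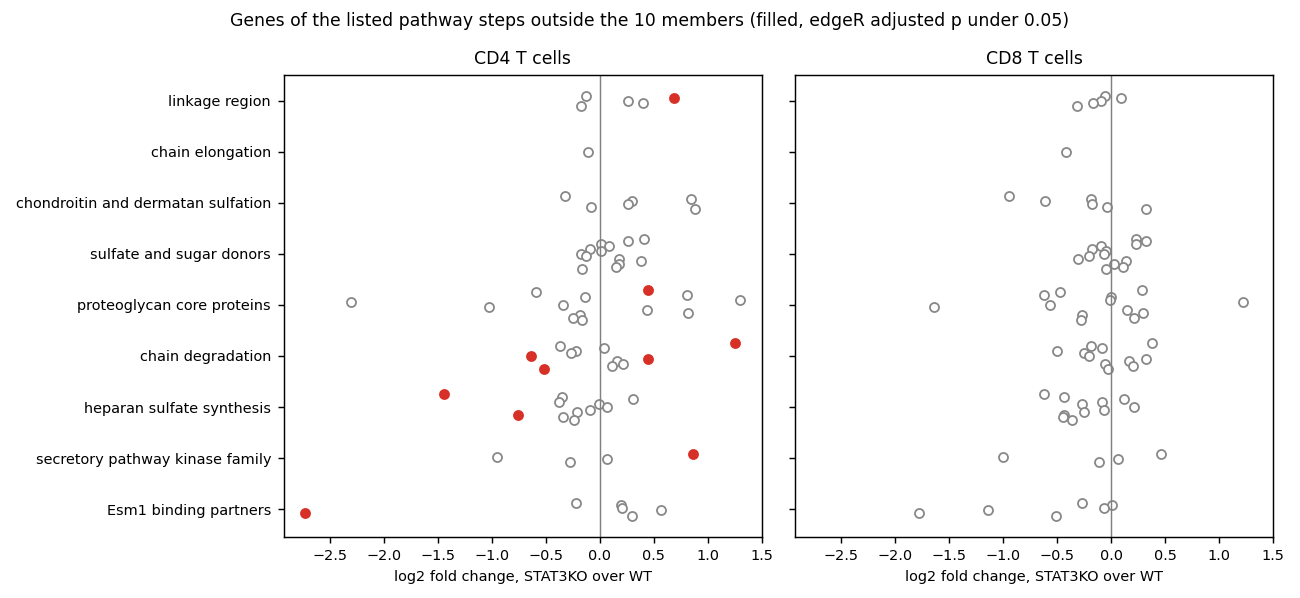
Log2 fold change (STAT3KO over WT, x axis) in CD4 (left) and CD8 T cells (right) of 70 tested genes in 9 pathway lists (y axis, 1 point per gene, spread vertically within a list for legibility), filled where the edgeR adjusted p was under 0.05. In CD4 T cells 10 points are filled, 5 on each side of 0, and in CD8 T cells none is.

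Genes with the most similar profiles were sought among 8749 tested genes whose mean log2 CPM reached 3, by the root mean square difference of centred log2 CPM over the 8 libraries, as a description with no test. For Chst11 they were Itga3 (0.39), Setbp1 (0.46) and Tns1 (0.56), and the same 3 genes stood nearest to Esm1, at 0.68, 0.39 and 0.75. For Fam20a they were Bcl3 (0.30), Stom (0.55) and Tox2 (0.56). No gene came as near to Csgalnact1, for which Lif (1.29), Bcl6 (1.33) and Fam43a (1.36) were the nearest. The log2 fold change (STAT3KO over WT) of Bcl6 was -2.21 for CD4 and -1.85 for CD8 T cells, and that of Csgalnact1 was -5.32 and -4.20.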

How the data were processed

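RNA of sorted splenic donor T cells was sequenced in 8 libraries, grouped by the genotype, cell type and title given in the labels. Growth and treatment fields of the labels describe another cell system and were not used. Per the methods, the authors aligned single-end reads to mm10 with STAR and counted them per RefSeq gene with HTSeq. They deposited raw counts and RPKM values (counts scaled by exon length and library size) of 25078 genes. From the counts, 12428 genes were kept (filterByExpr by group, minimum count 10), scaled by TMM (factors 0.982 to 1.03) and fitted together with a mean per group in edgeR 4.0.16 under R 4.3.3. Calls were made by the quasi-likelihood test with Benjamini-Hochberg adjusted p under 0.05 (two-sided). SEs were derived from the F statistic, and 95% intervals of log2 fold changes from the SE with the normal quantile. These intervals are narrower than the quasi-likelihood test, with its few degrees of freedom, would give. Values are TMM-scaled CPM unless RPKM is named. CPM of marker genes and lists were computed on the same scale. The p-values measure the spread between pools of 3 recipients, and the labels do not say whether libraries with the same replicate number were made together. Alternatives used RLE size factors, total counts, DESeq2 1.42.0, no filter, the replicate number as a block, only the libraries compared, limma 3.58.1 on log2(RPKM + 1), and each library left out in turn. The genes and lists were chosen with earlier results of these data known. Named were all 10 genes, called genes of each list (at most 4, or else the 2 with the highest RPKM), and the 3 nearest profiles. The values of 1 called list gene are not reported here.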

Additional observations from a re-analysis of the deposited data

How the results depend on the processing

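Some counts of called genes moved by over 1.5 times. For STAT3KO against WT in CD4 T cells (1444 genes) the count was 3747 with the replicate number as a block and 412 to 1307 with 1 library left out. In CD8 T cells (257 genes) it was 885 with DESeq2, 454 without the filter, 2258 with the block, 37 with only the libraries compared and 7 to 224 with 1 library left out. For the interaction (0 genes) it was 188 with DESeq2, 44 without the filter, 403 with the block, 13 with limma and 0 with any library left out. For CD8 against CD4 it was 5232 with the block, 1919 with only the libraries compared and 1546 to 2598 with 1 library left out in WT cells (2960 genes), and 3689 with the block and 457 to 1554 with 1 left out in STAT3KO cells (1555 genes). Among pathway list genes the count in CD4 T cells (10) was 20 with the block, 5 with only the libraries compared and 3 to 6 with 1 library left out, and in CD8 T cells (0) it was 3 with DESeq2 and 13 with the block. The fits with fewer libraries have fewer residual degrees of freedom. The cause of the moved counts was not tested for any setting.

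Among the tested comparisons of the 10 genes, directions changed for 4 values near 0. The log2 interaction of Chst11 (-0.05) lay between -0.38 and 0.23 with 1 library left out. The CD8 against CD4 log2 fold change in WT cells lay between -0.13 and 0.031 for Csgalnact2, -0.22 and 0.19 for Chpf, and -0.31 and 0.50 for Esm1 with 1 library left out, and that of Chpf (0.0087) was -0.0014 without the filter and -0.0059 with limma. Of the STAT3KO against WT values, those of Chst12 and Chpf in CD4 and of Chst12 and Xylt1 in CD8 T cells changed sign when 1 library was left out.

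Same-numbered libraries deviated together (r = 0.554 in CD4, 0.613 in CD8, 0.671 in WT and 0.642 in STAT3KO cells over 12428 genes). Running numbers in the sample titles lie close together within a replicate number and apart between replicate numbers. No label says what these running numbers mark. With 2 pairs per comparison and no batch named in the labels, the replicate numbers were not taken as pairs. With the block, the interaction of Esm1 and Chsy1, Xylt1 in CD8 against CD4 of WT cells, and Chsy1, Xylt1 and Fam20a in CD8 against CD4 of STAT3KO cells also passed. Chsy1, Xylt1 and Fam20b in CD4 and Esm1 and Chpf in CD8 T cells were then also called between STAT3KO and WT, and no call of the 10 genes was lost. As the choice of genes used the STAT3KO against WT comparisons, nothing is read from the calls in them. With 2 libraries per group and 3 to 10 counts in STAT3KO CD8 libraries, the size of the Csgalnact1 difference in CD8 T cells is known least well.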

Other observations

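In the pathway lists, 21 of the 70 tested genes, or 30.0%, differed between CD8 and CD4 T cells of WT donors, against 23.8% of all tested genes. Ext1 was lower in WT CD8 than in WT CD4 T cells, at 18.7 ± 2.85 against 105 ± 1.73 CPM (SD, n = 2), with a log2 fold change of -2.49 (SE 0.19, edgeR adjusted p = 0.000191). Arsb was higher, at 376 ± 29.4 against 151 ± 40.0 CPM (log2 fold change 1.31, SE 0.18, adjusted p = 0.00172). The degradation list had 6 of 11 tested genes called, 4 higher and 2 lower in WT CD8 T cells. The linkage list had 4 of 5 called, 3 higher and 1 lower. These lists had the largest shares, whereas the sulfate and sugar donor list had 1 of 13 called and the core protein list 3 of 13. Serglycin (Srgn), named after its values were seen, was at 537 and 613 CPM in WT CD8 and at 1372 and 1725 CPM in WT CD4 T cells, with a log2 fold change of -1.43 (SE 0.15, adjusted p = 0.000543). Its log2 fold change between STAT3KO and WT was -0.24 (SE 0.14, adjusted p = 0.321) in CD4 T cells and 0.21 (SE 0.14, adjusted p = 0.482) in CD8 T cells.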
